A study of Homo sapiens with 24 samples.

Results

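The table of SKBR3 cells held 134 well-expressed long non-coding RNAs (lncRNAs). SKBR3 is an established HER2-amplified human breast cancer cell line. The 134 members were chosen by 2 columns of the deposited count table, the gene biotype lncRNA and a mean level of at least 5 CPM (counts scaled to the column total) over the 24 libraries. Of the 14493 genes listed, 839 were lncRNAs, and 151 of these reached the threshold. The imprinted RNA H19 and the small nucleolar RNA hosts GAS5, ZFAS1, and SNHG genes made up 17 of the 151 and were left out by name, which leaves the 134. The lowest members were LOC100310756 at a mean of 5.01 CPM, LOC107985246 at 5.07 CPM, and ATRIP-TREX1 at 5.19 CPM, and the next lncRNAs under the threshold were C2CD4D-AS1 at 4.93 CPM, BAIAP2-DT at 4.86 CPM, and LINC01002 at 4.8 CPM. Because the mean over all groups set membership, an RNA that is low in one group can be a member through the others. The mean of 30 members was under 5 CPM in the untreated day-0 cells, and 15 of these were under 5 CPM in both untreated groups. These 15 are members through the treated groups alone, so that any rise in them is tied to how they were chosen and is a description. They are LCAL1, MIR22HG, ABHD11-AS1, LINC-PINT, LOC648987, SRP14-AS1, CBR3-AS1, IQCH-AS1, INO80B-WBP1, FAM111A-DT, WARS2-AS1, LOC102724814, NKILA, LOC107985246, and ATRIP-TREX1.

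The mRNA-seq libraries came from 8 groups of 3 replicates, each labelled as SKBr3 breast cells. In 6 groups the cells carried therapy-induced senescence (TIS) at day 7, with the drug refreshed on day 3. The drugs were the ACC inhibitor ND-646 (250 nmol/L), the FASN inhibitor TVB-3166 (250 nmol/L), the DNA-damaging agents bleomycin (10 μmol/L) and doxorubicin (10 nmol/L), the Aurora A kinase inhibitor alisertib (500 nmol/L), and the CDK4/6 inhibitor palbociclib (1 μmol/L). The other groups were untreated cells, labelled as proliferative control at day-0 and as control cells at day-7. Unlike those of the 6 drug groups, the day-7 labels name no refeed on day 3. A difference between a drug group and day-7 cells therefore cannot be told apart from one of refeeding. The states reached with ND-646 and TVB-3166 are called FASTIS, for fatty acid synthesis TIS. Every group is the same single cell line, and the labels do not say that replicates were separate cultures, so p-values measure the spread between these libraries, which may be technical.

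LncRNAs are transcripts longer than the small RNA classes that do not encode a known protein. Some act in the nucleus as scaffolds of nuclear bodies or as guides of chromatin regulators, others bind proteins or microRNAs in the cytoplasm, and many are transcribed from the opposite strand of a protein-coding gene or divergently from its promoter. Several are known targets of p53 or regulators of NF-κB, pathways that are active in senescent cells.

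The promoters of 8 members on which the results turn are shown first, so that their composition can be compared with the direction of each RNA. Each is the RefSeq window of GRCh38.p14 from 250 bases before to 50 bases after the annotated start, written 5′ to 3′ on the strand of the gene. Capitals mark matches to a motif searched on both strands. LCAL1 (chr6:79313335-79313634, minus strand), MALAT1 (chr11:65497488-65497787, plus strand), LINC-PINT (chr7:130913261-130913560, minus strand), MIR22HG (chr17:1716161-1716460, minus strand), NKILA (chr20:57709933-57710232, plus strand), STAG3L5P-PVRIG2P-PILRB (chr7:100335815-100336114, plus strand), and LINC00963 (chr9:129488410-129488709, plus strand) were each called higher in at least 1 TIS group, and DLEU1 (chr13:50081919-50082218, plus strand) was called lower in all 6.
LCAL1: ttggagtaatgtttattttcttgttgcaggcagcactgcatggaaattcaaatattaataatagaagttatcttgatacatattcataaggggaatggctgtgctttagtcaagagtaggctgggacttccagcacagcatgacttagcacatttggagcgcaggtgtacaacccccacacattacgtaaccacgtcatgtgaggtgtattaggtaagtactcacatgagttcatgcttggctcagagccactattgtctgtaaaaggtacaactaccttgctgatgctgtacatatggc
MALAT1: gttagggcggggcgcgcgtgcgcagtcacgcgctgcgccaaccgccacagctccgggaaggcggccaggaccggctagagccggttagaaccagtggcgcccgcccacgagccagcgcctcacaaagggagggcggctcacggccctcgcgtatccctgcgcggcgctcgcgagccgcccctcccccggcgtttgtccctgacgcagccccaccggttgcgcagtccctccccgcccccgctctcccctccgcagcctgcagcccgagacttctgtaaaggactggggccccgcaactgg
LINC-PINT: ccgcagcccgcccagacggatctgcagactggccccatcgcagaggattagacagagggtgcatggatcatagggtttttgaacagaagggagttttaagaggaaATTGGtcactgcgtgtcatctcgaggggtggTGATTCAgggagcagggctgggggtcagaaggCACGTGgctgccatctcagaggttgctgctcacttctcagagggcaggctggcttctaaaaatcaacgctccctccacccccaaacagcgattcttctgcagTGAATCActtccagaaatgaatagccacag
MIR22HG: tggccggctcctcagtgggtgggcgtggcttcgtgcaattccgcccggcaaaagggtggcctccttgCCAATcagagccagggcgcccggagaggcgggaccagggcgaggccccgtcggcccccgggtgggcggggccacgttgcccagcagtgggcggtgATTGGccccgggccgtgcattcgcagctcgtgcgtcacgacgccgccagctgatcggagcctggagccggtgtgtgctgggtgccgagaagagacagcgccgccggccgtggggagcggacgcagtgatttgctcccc
NKILA: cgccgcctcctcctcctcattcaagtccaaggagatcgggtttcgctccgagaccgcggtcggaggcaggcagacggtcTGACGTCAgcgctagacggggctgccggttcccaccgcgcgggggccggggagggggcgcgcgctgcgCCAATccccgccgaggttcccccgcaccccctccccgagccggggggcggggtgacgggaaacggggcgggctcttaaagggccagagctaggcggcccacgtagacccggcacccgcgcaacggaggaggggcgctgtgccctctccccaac
STAG3L5P-PVRIG2P-PILRB: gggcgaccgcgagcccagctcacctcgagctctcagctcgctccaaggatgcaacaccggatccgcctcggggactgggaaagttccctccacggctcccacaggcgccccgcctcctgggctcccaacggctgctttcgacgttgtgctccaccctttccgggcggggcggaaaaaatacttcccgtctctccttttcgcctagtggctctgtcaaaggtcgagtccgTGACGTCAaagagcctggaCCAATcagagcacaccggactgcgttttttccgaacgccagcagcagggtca
LINC00963: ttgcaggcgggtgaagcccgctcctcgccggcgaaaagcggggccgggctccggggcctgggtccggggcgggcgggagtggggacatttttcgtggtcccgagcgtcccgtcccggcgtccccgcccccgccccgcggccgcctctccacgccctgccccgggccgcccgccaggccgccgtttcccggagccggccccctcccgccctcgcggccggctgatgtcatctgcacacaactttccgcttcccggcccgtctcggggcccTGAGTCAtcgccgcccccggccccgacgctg
DLEU1: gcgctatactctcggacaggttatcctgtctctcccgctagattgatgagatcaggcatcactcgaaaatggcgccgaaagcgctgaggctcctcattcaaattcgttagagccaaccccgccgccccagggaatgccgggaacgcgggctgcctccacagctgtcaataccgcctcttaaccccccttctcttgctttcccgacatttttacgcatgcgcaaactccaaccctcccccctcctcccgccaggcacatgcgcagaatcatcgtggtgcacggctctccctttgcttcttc

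The motifs searched were the AP-1-like letters TGANTCA, the cyclic AMP response element TGACGTCA, the E2F site TTTNGCGC, the E-box CACGTG, the interferon-stimulated response element GAAANNGAA, a sterol-response site TCACNCCAC, an ATF4 site TGATGNAA, and the CCAAT box CCAAT. N stands for any base, so the AP-1-like letters are a loose form of the AP-1 site. In the LINC-PINT window AP-1-like letters occurred at positions 137 to 143 (TGATTCA) and 271 to 277 (TGAATCA), the E-box at 169 to 174, and the CCAAT box on the opposite strand at 106 to 110, counted from 1 at the first base printed. The cyclic AMP response element was present in the NKILA window at 80 to 87 and in the STAG3L5P-PVRIG2P-PILRB window at 230 to 237, and each also held a CCAAT box. The LINC00963 window held an AP-1-like match at 270 to 276 (TGAGTCA), the MIR22HG window held 2 CCAAT boxes, and the LCAL1, MALAT1, and DLEU1 windows held none of the letters searched. A promoter window was present for 109 of the 134 members. The AP-1-like letters were in 14 of the 109 windows (12.8%) and in 7.71% of all 35116 windows in the table, the cyclic AMP response element in 5 (4.59%) and 1.85%, the E-box in 10 (9.17%) and 7.26%, and the CCAAT box in 49 (45%) and 34.6%. E2F letters were found in 3 windows (2.75%, against 1.79% of all windows), the interferon letters in 4 (3.67%, against 8.11%), the ATF4 letters in 1 (0.917%, against 3.62%), and the sterol-response letters in 0 (against 1.13%). These shares describe letters in a window and are not evidence of binding.

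The libraries held 29405121 to 44316330 counts. The lowest member in untreated cells, LCAL1, had 11 to 20 reads in each day-0 library, so that counting error is part of its spread. Of the identity markers of the line, ERBB2 (5121 to 8827 CPM), GRB7, KRT8, KRT18, KRT19, and EPCAM were high in every library, TFAP2B was between 0.213 and 4.43 CPM, and CDH1 was not listed. Of 7 markers of immune, stromal, and endothelial cells only COL1A1 and VWF were listed, and their sum was 6.50 to 15.7 CPM. ND-646 replicate 1 stood apart from its group, with the lowest TMM factor of the series (0.791), and values without it are given beside ND-646 results that it moved across a threshold. The table lists only genes with at least 1 read in every library, so a lncRNA silent in any library could not be tested. The labels name a stranded mRNA kit and the study's methods a stranded total RNA kit, and the level of RNAs without a poly(A) tail, such as MALAT1, depends on which is right. Whether counting used strand is not stated, so reads of an antisense RNA and of the overlapping gene cannot be told apart. In bulk RNA, fewer cells of a kind and less RNA per cell cannot be told apart either.

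More of the lncRNAs were higher than lower in TIS cells of all 6 groups relative to untreated day-0 cells. A gene was called where it changed at least 2-fold and its p-value by edgeR's quasi-likelihood test, after Benjamini-Hochberg adjustment over all genes tested, was under 0.05. In ND-646 cells 27 members were higher and 5 lower (all genes tested: 10.5% higher and 8.95% lower, against 20.1% and 3.73% of the members). In TVB-3166 cells 36 were higher and 3 lower (10.7% and 6.69% of all genes tested). In bleomycin cells the numbers were 27 and 7 (background 11.1% and 7.19%), in doxorubicin cells 27 and 1 (background 9.67% and 2.85%), in alisertib cells 23 and 1 (background 6.06% and 1.38%), and in palbociclib cells 31 and 2 (background 10.4% and 6.09%). In all 6 groups a larger share of the members than of all genes tested was higher. The share of members higher was between 17.2% and 26.9% in the 6 groups, and the share lower was between 0.746% and 5.22%. The median log2 fold-change of the 134 members was 0.49 in ND-646, 0.48 in TVB-3166, 0.40 in bleomycin, 0.32 in doxorubicin, 0.14 in alisertib, and 0.33 in palbociclib cells, whereas the median of all genes tested lay between -0.01 and 0.02. These comparisons share the 3 day-0 libraries and are therefore not independent of one another.

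**Figure D1:**
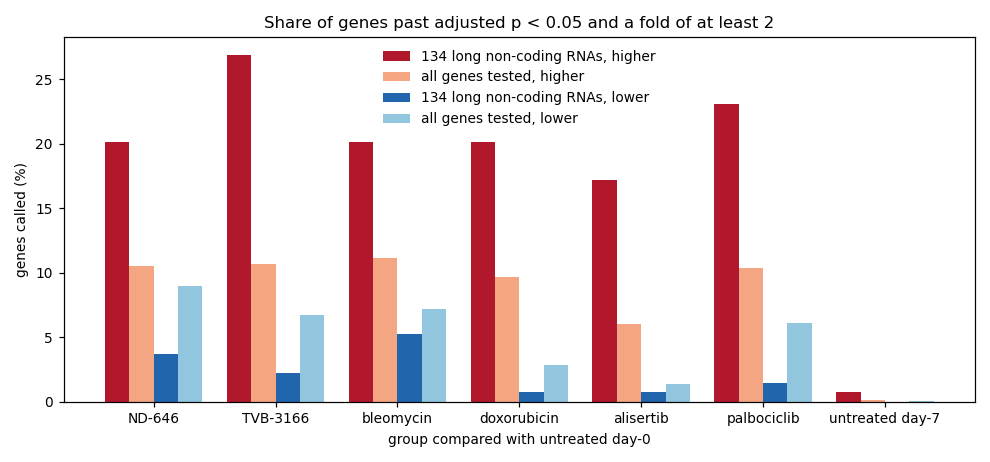
Share of genes called (%, vertical axis) in each group relative to untreated day-0 cells (horizontal axis), with dark bars for the 134 lncRNAs and light bars for all genes tested, red for higher and blue for lower. In the 6 TIS groups 17.2% to 26.9% of the members were higher, and in untreated day-7 cells 0.746%.

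Smaller shares of the other genes above the same mean level were higher. Of these 10352 genes at 5 CPM or more, 8.02% were higher and 8.26% lower in ND-646 cells, and 2.83% and 0.889% in alisertib cells, the largest and the smallest shares higher among the 6 groups. More members were higher than lower at each level in all 6 groups, except for 3 and 3 of the 35 members between 10 and 20 CPM in bleomycin cells. Of the 34 members with a mean of 20 CPM or more, 9 were higher and 0 lower in TVB-3166 cells, 8 and 1 in palbociclib cells, 7 and 3 in bleomycin cells, 7 and 0 in both doxorubicin and alisertib cells, and 5 and 1 in ND-646 cells. Of the 65 members between 5 and 10 CPM, where the threshold bears most on membership, 15 to 22 were higher and 1 to 3 lower. The shares of other genes within each of these levels were not set beside these counts, which describe the members alone. Among the 104 members at 5 CPM or more in day-0 cells, the numbers higher were 14 in ND-646 (13.5%, against 6.34% of the 10199 genes tested at that day-0 level), 16 in TVB-3166 (15.4%, against 5.17%), 12 in bleomycin (11.5%, against 4.71%), 10 in doxorubicin (9.62%, against 3.07%), 9 in alisertib (8.65%, against 1.67%), and 15 in palbociclib cells (14.4%, against 4.02%).

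The contrast with all genes was smaller when untreated day-7 cells were the reference. In ND-646 cells 15 members were then higher (11.2%, against 8.03% of all genes tested) and 6 lower (4.48%, against 8.22%), and in TVB-3166 cells 21 were higher (15.7%, against 7.12%) and 5 lower (3.73%, against 6.07%). In bleomycin cells 10 were higher (7.46%, against 8.19%) and 5 lower (3.73%, against 5.53%), and in doxorubicin cells 7 were higher (5.22%, against 6.87%) and 0 lower (against 1.73%), so that the shares higher were below the background in both. Alisertib cells had 5 higher (3.73%, against 2.11%) and 0 lower (against 0.587%), and palbociclib cells had 10 higher (7.46%, against 6.38%) and 2 lower (1.49%, against 4.63%). Only TVB-3166 cells had a share higher of over 2 times the background.

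Single libraries also moved the counts, which are given here without a share of all genes tested beside them. Without ND-646 replicate 1, 33 members were higher and 3 lower in ND-646 cells. In bleomycin cells 35 were higher without replicate 1 and 16 without replicate 2, and NEAT1, XIST, EPB41L4A-AS1, LINC01000, FAM157A, FAM157B, LOC729737, LINC01001, LOC102724814, FAM111A-DT, and ELF3-AS1 were among the calls lost without replicate 2.

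The members took a larger share of all counts in TIS cells. The share was 0.245% to 0.281% in day-0 libraries, 0.316% to 0.355% in day-7 libraries, and between 0.306% and 0.584% in the TIS libraries apart from ND-646 replicate 1, at 0.258%. The day-0 group had the lowest mean of the 8 groups for 62 members (46.3%, against 23.3% of all genes tested), and TVB-3166 had the highest mean for 34 (25.4%, against 9.66%). ND-646 was highest for 29 (21.6%, against 19.4%), palbociclib for 25 (18.7%, against 13.3%), bleomycin for 16 (11.9%, against 13.8%), doxorubicin for 10 (7.46%, against 7.64%), day-0 for 10 (7.46%, against 22.9%), day-7 for 6 (4.48%, against 8.30%), and alisertib for 4 (2.99%, against 4.97%). The highest group mean was 1.22 to 24.2 times the lowest, with a median of 2.06 against 1.85 for all genes tested, and 73 members (54.5%, against 42.9%) varied at least 2-fold and 13 at least 4-fold. In a test for any difference among the 8 groups, 123 members passed an adjusted p-value under 0.05 by edgeR's quasi-likelihood test, 91.8% against 81.6% of all genes tested. The 11 that did not pass were MAPKAPK5-AS1, MRPL20-AS1, TMEM132D-AS1, CCDC144NL-AS1, THAP9-AS1, SDCBP2-AS1, SPINT1-AS1, SLMO2-ATP5E, LOC100630923, SPECC1L-ADORA2A, and ATRIP-TREX1.

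NEAT1, the RNA scaffold of nuclear paraspeckles, had one of the widest ranges of level. Its level was 37.8, 56.8, and 130.0 CPM in the day-0 libraries (replicates 1 to 3, TMM-scaled CPM here and below), 189, 194, and 216 CPM at day-7, 141, 428, and 669 CPM in ND-646, and 500.0, 872, and 1050.4 CPM in TVB-3166 cells. It was 101, 247, and 311 CPM in bleomycin, 381, 248, and 412 CPM in doxorubicin, 264, 563, and 717 CPM in alisertib, and 812, 606, and 1379.8 CPM in palbociclib cells. All libraries of ND-646, TVB-3166, doxorubicin, alisertib, and palbociclib cells lay above the 3 day-0 libraries, whereas bleomycin replicate 1 lay below day-0 replicate 3. The log2 fold-change relative to day-0 cells was 3.64 (SE 0.45, adjusted p = 8.63e-05) in palbociclib, 3.44 (SE 0.41, adjusted p = 4.8e-05) in TVB-3166, 2.78 (SE 0.45, adjusted p = 0.00142) in alisertib, 2.46 (SE 0.60, adjusted p = 0.0116) in ND-646, 2.23 (SE 0.39, adjusted p = 0.00122) in doxorubicin, and 1.56 (SE 0.48, adjusted p = 0.0214) in bleomycin cells by edgeR's quasi-likelihood test. Relative to day-7 cells it was 2.24 (adjusted p = 3.66e-05) in palbociclib, 2.02 (adjusted p = 1.97e-05) in TVB-3166, and 1.38 (adjusted p = 0.00624) in alisertib cells, 0.82 (adjusted p = 0.000995) in doxorubicin, 1.05 (adjusted p = 0.108) in ND-646, and 0.15 (adjusted p = 0.717) in bleomycin cells. NEAT1 took 2.86% of all member counts at day-0 and 19.9% in palbociclib cells.

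MALAT1, a nuclear speckle RNA transcribed next to NEAT1 on chromosome 11 (chr11:65265111-65275544 and chr11:65190245-65213011, GRCh37, plus strand), was also higher in each TIS group, with a different order of groups. The day-0 libraries held 147, 45.2, and 73.4 CPM and the day-7 libraries 133, 288, and 116 CPM, which overlapped. ND-646 libraries held 214, 455, and 644 CPM, TVB-3166 libraries 343, 516, and 536 CPM, bleomycin libraries 269, 559.7, and 454 CPM, doxorubicin libraries 379, 228, and 345 CPM, alisertib libraries 199, 226, and 261 CPM, and palbociclib libraries 259.7, 190.3, and 416 CPM. Each TIS library lay above all 3 day-0 libraries. The log2 fold-change was 2.40 (adjusted p = 0.000164) in TVB-3166, 2.30 (adjusted p = 0.00651) in ND-646, 2.28 (adjusted p = 0.0014) in bleomycin, 1.85 (adjusted p = 0.00213) in doxorubicin, 1.36 (adjusted p = 0.00895) in alisertib, and 1.70 (adjusted p = 0.0035) in palbociclib cells. Against day-7 cells MALAT1 passed both thresholds in TVB-3166 cells, 1.38 (adjusted p = 0.00229), and bleomycin cells, 1.27 (adjusted p = 0.0166), and its values were 1.29 in ND-646, 0.85 in doxorubicin, 0.37 in alisertib, and 0.70 in palbociclib cells.

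**Figure D2:**
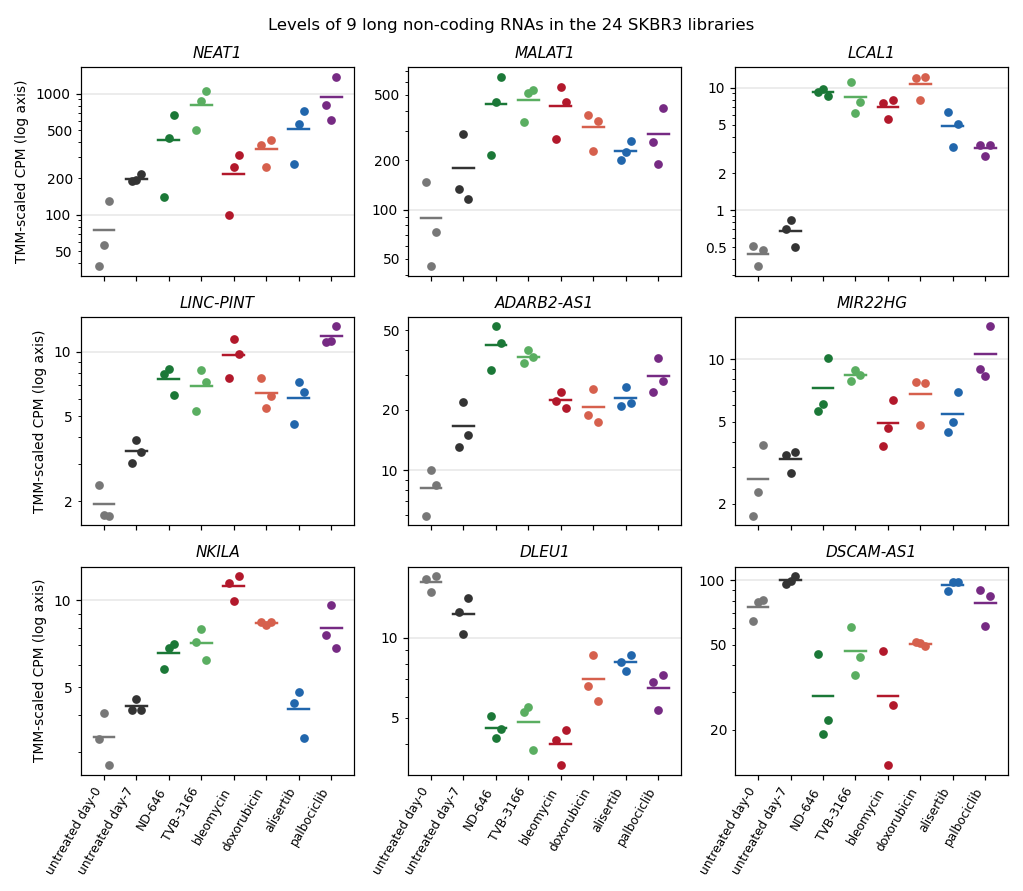
Level of 9 members (TMM-scaled CPM, log axis) in each library, grouped along the horizontal axis, with points for replicates 1 to 3 from left to right and a line at the group mean. LCAL1 lies at or under 0.840 CPM in every untreated library and at or over 2.76 CPM in every TIS library, DLEU1 is lower in every TIS library than in any untreated one, and NKILA is highest with bleomycin.

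The other members of the nuclear body and chromatin list moved unequally. XIST, the RNA that coats an inactive X chromosome, was called higher in TVB-3166 (2.21 on the log2 scale, adjusted p = 9.16e-05), palbociclib (2.07, adjusted p = 3.52e-05), alisertib (1.6, adjusted p = 0.00165), doxorubicin (1.44, adjusted p = 0.00144), and bleomycin cells (1.10, adjusted p = 0.0169), and its value in ND-646 cells was 1.22 (adjusted p = 0.154), or 1.71 (adjusted p = 0.000109) without ND-646 replicate 1. XIST was also called higher in untreated day-7 than in day-0 cells. Against day-7 cells XIST passed both thresholds in TVB-3166 (1.15, adjusted p = 0.00386) and palbociclib cells (1.03, adjusted p = 0.00115) by edgeR's quasi-likelihood test. It was not called in alisertib (0.56), doxorubicin (0.39), ND-646 (0.17), or bleomycin cells (0.06) relative to day-7. TUG1, a widely expressed RNA linked to chromatin regulation, was called in none of the 6 comparisons with day-0 cells, with log2 fold-changes from -0.04 in alisertib to 0.57 in bleomycin cells (adjusted p = 0.00321). Of the 4 members on this list, 2 were called higher in ND-646 cells and 3 in each of the other TIS groups, with 0 lower in any. Of all genes tested, 6.06% (alisertib) to 11.1% (bleomycin) were called higher, but a list this short gives no share to compare.

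Some of the members varied together within groups. NEAT1 was lowest in replicate 1 in 6 of the 8 groups and in replicate 2 in doxorubicin and palbociclib cells, and it was highest in replicate 3 in all 8. FAM157A, STAG3L5P-PVRIG2P-PILRB, and THAP9-AS1 had their lowest library in the same replicate as NEAT1 in 8 of 8 groups, MIR22HG in 7, and MALAT1 in 6. DANCR, DSCAM-AS1, and ABHD11-AS1 were highest in ND-646 replicate 1, where NEAT1 was lowest. The part of library preparation in this variation was not tested.

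The lncRNAs linked to p53 and DNA damage include LINC-PINT, NORAD, TP53TG1, and NEAT1. LINC-PINT, a p53-induced RNA that binds the Polycomb repressive complex, rose in all 6 comparisons. It was at 2.39, 1.73, and 1.72 CPM in day-0 and 3.04, 3.88, and 3.42 CPM in day-7 libraries, and at 11.1, 11.2, and 13.1 CPM in palbociclib, 7.53, 11.5, and 9.78 CPM in bleomycin, 7.86, 8.29, and 6.28 CPM in ND-646, 5.29, 8.22, and 7.21 CPM in TVB-3166, 7.55, 5.44, and 6.22 CPM in doxorubicin, and 4.62, 7.23, and 6.49 CPM in alisertib cells. Every TIS library was above every untreated library, and LINC-PINT is one of the 15 members with a mean under 5 CPM in both untreated groups. The RNA's log2 fold-change was 2.60 (SE 0.19, adjusted p = 3.93e-06) in palbociclib and 2.31 (SE 0.24, adjusted p = 0.000102) in bleomycin cells, and from 1.65 to 1.93 in the other TIS groups. Compared with day-7 cells, it was 1.80 (adjusted p = 8.58e-06) in palbociclib, 1.5 (adjusted p = 0.000595) in bleomycin, 1.12 (adjusted p = 0.00417) in ND-646, and 1.01 (adjusted p = 0.00124) in TVB-3166 cells, and 0.93 and 0.85, under a 2-fold change, in doxorubicin and alisertib cells. The annotated gene is long (chr7:130476023-130794935, GRCh37, minus strand) and overlaps MKLN1 on the opposite strand.

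NORAD, which is induced by DNA damage and sequesters PUMILIO proteins, was abundant and changed by less than 2-fold. Its group mean was 322 ± 33.7 CPM (SD, n = 3) at day-0 and 372 ± 55.1 CPM at day-7, 568 ± 126 CPM in ND-646, 552 ± 40.5 CPM in TVB-3166, 505 ± 29.5 CPM in palbociclib, and 503 ± 83.7 CPM in bleomycin cells. The log2 fold-changes of 0.81 (adjusted p = 0.0132) in ND-646, 0.78 (adjusted p = 0.000132) in TVB-3166, 0.65 (adjusted p = 0.00467) in bleomycin, and 0.65 (adjusted p = 0.000496) in palbociclib cells passed the adjusted threshold and not the fold-change threshold. TP53TG1, an RNA named as a target of p53, was 20.8, 13.3, and 9.40 CPM in ND-646 and 12.0, 11.2, and 10.2 CPM in TVB-3166 libraries against 7.81, 6.91, and 6.66 CPM in day-0 libraries, and no library of those 2 groups overlapped with day-0. Its log2 fold-change was 1.01 (SE 0.28, adjusted p = 0.0195) in ND-646 cells, 0.67 without replicate 1, and 0.65 (SE 0.14, adjusted p = 0.00276) in TVB-3166 cells, and between -0.48 and -0.09 in the other TIS groups. Of the 4 members on the list, 3 were called higher in ND-646 and 2 in each other TIS group. Of all genes tested, 6.06% (alisertib) to 11.1% (bleomycin) were called higher. NEAT1 is counted on the nuclear body list as well, LINC-PINT is a member through the treated groups, and TP53TG1 was not called without ND-646 replicate 1. The list is too short for its share to be read as a result.

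Among microRNA host transcripts, MIR22HG was higher and MIR4435-2HG was not called. The seeds of the microRNAs processed from MIR22HG are shown in capitals in the RefSeq mature sequences (GRCh38.p14, minus strand, chr17:1713914-1713935 and chr17:1713952-1713973).
hsa-miR-22-3p: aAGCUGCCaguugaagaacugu
hsa-miR-22-5p: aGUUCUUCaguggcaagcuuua
The host was at 1.75, 2.27, and 3.85 CPM in day-0 and 3.46, 2.81, and 3.56 CPM in day-7 libraries, and reached 8.94, 8.29, and 14.4 CPM in palbociclib, 7.86, 8.92, and 8.41 CPM in TVB-3166, 5.61, 6.08, and 10.1 CPM in ND-646, 7.81, 4.79, and 7.70 CPM in doxorubicin, 4.46, 4.97, and 6.94 CPM in alisertib, and 3.80, 4.66, and 6.37 CPM in bleomycin cells. Only bleomycin cells had a library within the range of day-0 cells. MIR22HG is also among the 15 members that the treated groups alone brought over the threshold. The log2 fold-change was 2.01 (SE 0.31, adjusted p = 0.00033) in palbociclib, 1.69 (SE 0.26, adjusted p = 0.000232) in TVB-3166, 1.47 (SE 0.36, adjusted p = 0.0118) in ND-646, 1.38 (SE 0.30, adjusted p = 0.00405) in doxorubicin, and 1.06 (SE 0.29, adjusted p = 0.0169) in alisertib cells, and 0.92 (adjusted p = 0.0384) in bleomycin cells, under a 2-fold change. MIR4435-2HG ranged from 0.19 in alisertib to 0.64 in bleomycin cells. The mature microRNAs were not measured by these libraries.

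LCAL1, named for its association with lung cancer, had the largest fold-change of the members in 5 of the 6 TIS comparisons. It was at 0.509, 0.352, and 0.474 CPM in day-0 libraries and 0.709, 0.840, and 0.505 CPM in day-7 libraries. The TIS libraries held 12.0, 8.01, and 12.2 CPM with doxorubicin, 9.22, 9.76, and 8.63 CPM with ND-646, 11.1, 6.20, and 7.69 CPM with TVB-3166, 7.57, 5.56, and 7.89 CPM with bleomycin, 6.35, 3.28, and 5.06 CPM with alisertib, and 3.42, 2.76, and 3.43 CPM with palbociclib. All 18 TIS libraries were above all 6 untreated ones. LCAL1 reached the mean of 5.52 CPM that made it a member through the TIS groups, so its difference is not independent of how it was chosen. Its log2 fold-change was 4.59 (SE 0.26, adjusted p = 4.69e-06) in doxorubicin, 4.34 (SE 0.26, adjusted p = 1.52e-05) in ND-646, 4.21 (SE 0.29, adjusted p = 1.20e-06) in TVB-3166, 3.96 (SE 0.27, adjusted p = 1.48e-05) in bleomycin, 3.43 (SE 0.31, adjusted p = 0.000107) in alisertib, and 2.83 (SE 0.27, adjusted p = 2.05e-05) in palbociclib cells. Relative to day-7 cells it was 2.23 to 3.99, with adjusted p-values from 3.88e-07 to 0.000285. The gene lies at chr6:80017386-80023101 (GRCh37, minus strand) and overlaps no protein-coding gene.

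ADARB2-AS1, an antisense RNA of the ADARB2 gene (chr10:1568832-1599183, GRCh37, plus strand), rose in each TIS group and most with the fatty acid synthesis inhibitors. It was at 5.95, 10.0, and 8.46 CPM at day-0, 13.1, 21.8, and 15.1 CPM at day-7, 31.7, 52.2, and 43.1 CPM in ND-646, 34.4, 39.6, and 36.6 CPM in TVB-3166, 24.5, 36.4, and 27.8 CPM in palbociclib, 21.0, 26, and 21.6 CPM in alisertib, 22.2, 24.6, and 20.5 CPM in bleomycin, and 18.9, 25.3, and 17.5 CPM in doxorubicin libraries. ND-646 and TVB-3166 libraries did not overlap with the untreated libraries of either day. The log2 fold-change was 2.37 (adjusted p = 0.000211) in ND-646 and 2.19 (adjusted p = 2.60e-06) in TVB-3166 cells, and from 1.35 to 1.86 in the other TIS groups. With day-7 as reference, the values were 1.35 (adjusted p = 0.00431) and 1.15 (adjusted p = 0.000151), and 0.33 to 0.84 with the other drugs.

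STAG3L5P-PVRIG2P-PILRB, a read-through transcript on chromosome 7, and LOC102724814, an uncharacterised RNA on chromosome 14, were highest, like NEAT1, in palbociclib and TVB-3166 cells. The read-through was at 12.3, 15.4, and 36.0 CPM at day-0, 144, 111, and 283 CPM in palbociclib, 88.9, 167, and 237 CPM in TVB-3166, 70.3, 187, and 233 CPM in alisertib, 112, 54.9, and 102 CPM in doxorubicin, 19.8, 61.4, and 129 CPM in ND-646, and 18.8, 42.0, and 53.6 CPM in bleomycin libraries. ND-646 and bleomycin libraries overlapped with those of day-0. The log2 fold-changes were 3.08 (adjusted p = 0.000183) in palbociclib, 2.96 (adjusted p = 0.000122) in TVB-3166, 2.95 (adjusted p = 0.00123) in alisertib, and 2.09 (adjusted p = 0.00158) in doxorubicin cells, and 1.72 (adjusted p = 0.0574) in ND-646 and 0.85 (adjusted p = 0.13) in bleomycin cells. PILRB, an immunoglobulin-like receptor gene that shares its exons, had 2.90, 2.78, 2.41, and 2.19 in the first 4 groups, and the split of reads between both rows is uncertain. LOC102724814 had log2 fold-changes of 3.1 (adjusted p = 3.68e-05) in TVB-3166, 2.87 (adjusted p = 3.49e-05) in palbociclib, 2.63 (adjusted p = 0.000576) in alisertib, and 2.16 (adjusted p = 0.000177) in doxorubicin cells, from a day-0 mean of 1.31 ± 0.406 CPM (SD, n = 3), and it owes its membership to the treated groups. Unlike the read-through, LOC102724814 was also called in ND-646 (2.04, adjusted p = 0.0207) and bleomycin cells (1.81, adjusted p = 0.0158). The bleomycin call was lost without bleomycin replicate 2. Relative to day-7 cells LOC102724814 was not called in either group, at 0.90 in ND-646 and 0.67 in bleomycin cells. In ND-646 cells the read-through had 2.16 (adjusted p = 0.00185) without replicate 1.

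**Figure D3:**
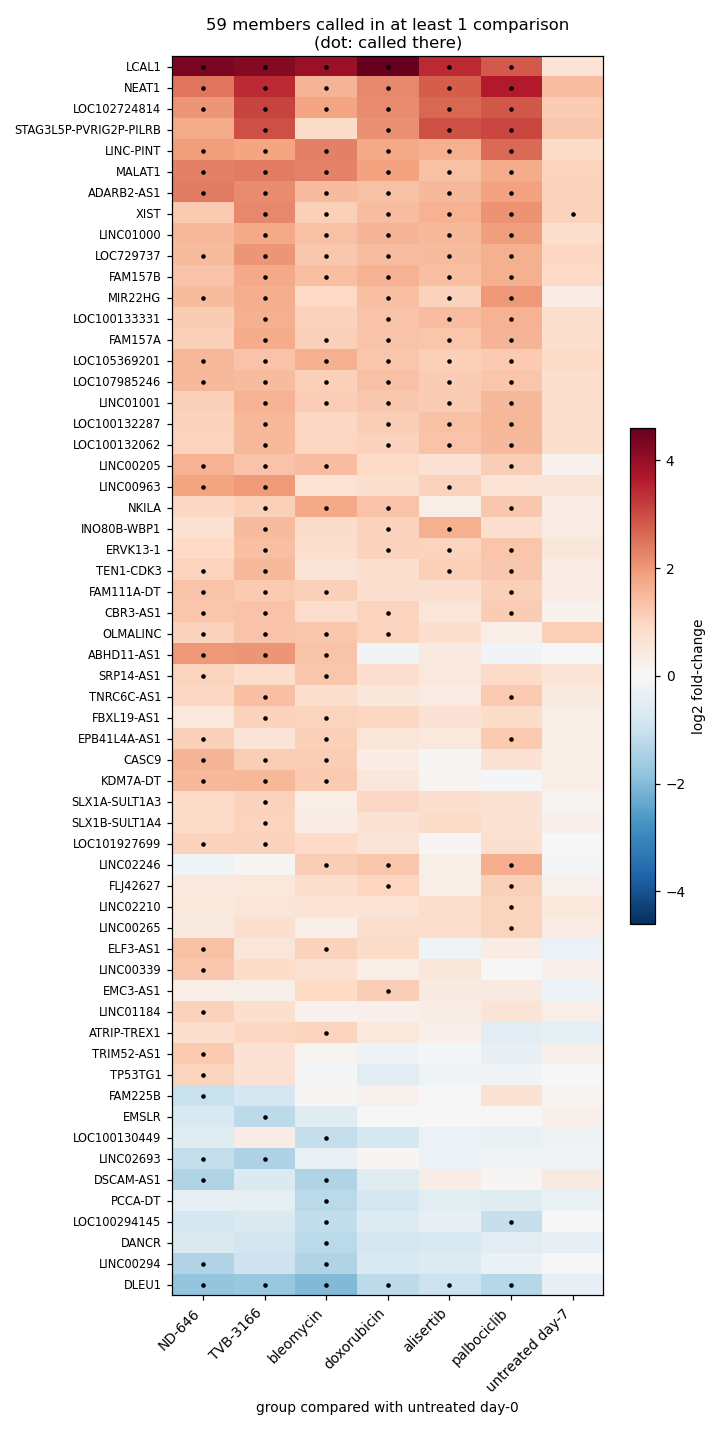
Log2 fold-change relative to untreated day-0 cells (colour, red higher and blue lower) of the 59 members called in at least 1 comparison, with a dot where a member was called. Members are ordered by their mean over the 6 TIS groups, from LCAL1 to DLEU1, and the untreated day-7 column holds 1 dot, for XIST.

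Of the 134 members, 59 were called in at least 1 comparison with day-0 cells and 61 when the comparison of FASTIS with the other TIS states is added. The share of all genes called in at least 1 of these comparisons was not counted, so these numbers describe the members alone. The other 73 were called in none, among them FGD5-AS1 and FAM83H-AS1, whose group means differed by 1.22-fold and 1.25-fold at most. By name, the members comprised 38 antisense RNAs, 28 LINC-numbered RNAs, 23 uncharacterised LOC or FLJ rows, 9 read-through transcripts, 5 divergent transcripts, and 31 with a name of their own. Over the 6 TIS groups, 25.8% to 38.7% of the RNAs with their own name, 17.4% to 34.8% of the uncharacterised rows, 10.7% to 21.4% of the LINC-numbered RNAs, and 2.63% to 18.4% of the antisense RNAs were higher, against 6.06% to 11.1% of all genes tested. The read-through and divergent classes are small, with 1 to 5 of 9 and 0 to 2 of 5 higher.

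Several of the rows that rose have near-identical copies in the genome, and how reads were split between them is uncertain. FAM157A and FAM157B were at 3.80 and 2.73 CPM at day-0 and at 12.4 and 9.10 CPM in TVB-3166 cells, with log2 fold-changes of 1.72 (adjusted p = 0.000492) and 1.75 (adjusted p = 0.000102). LOC729737, LOC100132062, LOC100132287, LOC100133331, and LINC01001, related uncharacterised rows, had log2 fold-changes of 2.03, 1.48, 1.52, 1.64, and 1.61 in TVB-3166 cells and of 1.65, 1.51, 1.52, 1.6, and 1.48 in palbociclib cells. They are not independent measurements. Against day-7 cells LOC729737 had 1.10 in TVB-3166 cells. The other rows named here were then under a 2-fold change in these cells, from 0.67 for LOC100132062 to 0.95 for FAM157A. In palbociclib cells all of them were under it, from 0.71 for LOC100132287 to 0.82 for LOC100133331. Without ND-646 replicate 1, FAM157A (1.43), FAM157B (1.78), LOC100132062 (1.38), LOC100132287 (1.41), LOC100133331 (1.49), and LINC01001 (1.45) were also called in ND-646 cells, where they were not with all 3 replicates. LINC01000, at 35.5 ± 13.8 CPM at day-0, was 115, 108, and 179 CPM in palbociclib and 94.0, 119.7, and 143 CPM in TVB-3166 libraries, with log2 fold-changes of 1.92 (adjusted p = 0.00018) and 1.75 (adjusted p = 0.000108). Against day-7 cells these values were 1.11 in palbociclib and 0.93 in TVB-3166 cells. In ND-646 libraries LINC01000 was 23.9, 112, and 164 CPM, where replicate 1 lay below every day-0 library, and the log2 fold-change relative to day-0 was 1.49 (adjusted p = 0.0714), or 1.95 (adjusted p = 0.000257) without that replicate.

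DLEU1, a long RNA from a chromosome 13 region that is deleted in lymphocytic leukaemia (chr13:50656305-51480992, GRCh37, plus strand), fell in each TIS group. It was at 16.6, 14.8, and 17.1 CPM in day-0 and 12.5, 10.3, and 14.1 CPM in day-7 libraries, and at 4.14, 3.32, and 4.51 CPM in bleomycin, 5.06, 4.18, and 4.52 CPM in ND-646, 5.25, 5.47, and 3.79 CPM in TVB-3166, 6.83, 5.37, and 7.22 CPM in palbociclib, 6.61, 8.63, and 5.80 CPM in doxorubicin, and 8.11, 7.5, and 8.64 CPM in alisertib libraries. No TIS library reached the lowest untreated library. For DLEU1 the log2 fold-change was -2.01 (SE 0.17, adjusted p = 4.70e-05) in bleomycin, -1.82 (SE 0.18, adjusted p = 0.000119) in ND-646, -1.73 (SE 0.17, adjusted p = 9.32e-06) in TVB-3166, -1.32 (SE 0.15, adjusted p = 6.22e-05) in palbociclib, -1.19 (SE 0.16, adjusted p = 0.000299) in doxorubicin, and -1.0 (SE 0.12, adjusted p = 0.000399) in alisertib cells. The alisertib value lies at the fold-change threshold and is not called by DESeq2. Relative to day-7 cells the fall passed both thresholds in bleomycin (-1.61, adjusted p = 0.000272), ND-646 (-1.43, adjusted p = 0.000905), and TVB-3166 cells (-1.34, adjusted p = 9.50e-05), and was -0.92, -0.79, and -0.59 in palbociclib, doxorubicin, and alisertib cells.

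DSCAM-AS1, an RNA characteristic of luminal breast cancer cells, was lower with ND-646 and bleomycin. Its level was 64.4, 79.3, and 80.6 CPM at day-0, 96.0, 98.8, and 105 CPM at day-7, 45, 19, and 22.2 CPM in ND-646, 46.7, 13.6, and 26 CPM in bleomycin, 60.1, 36.0, and 43.6 CPM in TVB-3166, 51.2, 50.7, and 49.0 CPM in doxorubicin, 88.8, 97.8, and 98.2 CPM in alisertib, and 90.0, 60.9, and 84.3 CPM in palbociclib libraries. ND-646, TVB-3166, bleomycin, and doxorubicin libraries were all below the day-0 libraries, and alisertib libraries were all above them. The log2 fold-change was -1.39 (adjusted p = 0.00682) in ND-646 and -1.38 (adjusted p = 0.00819) in bleomycin cells, -0.68 (adjusted p = 0.00509) in TVB-3166, -0.56 (adjusted p = 0.00174) in doxorubicin, 0.34 (adjusted p = 0.0271) in alisertib, and 0.07 (adjusted p = 0.709) in palbociclib cells. Against day-7 cells it was -1.80 (adjusted p = 0.00257) in ND-646, -1.78 (adjusted p = 0.00277) in bleomycin, and -1.09 (adjusted p = 0.000127) in TVB-3166 cells.

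The remaining members that fell relative to day-0 cells did so in 1 or 2 comparisons each. LINC00294 was 21.8, 27.5, and 36.9 CPM at day-0, 11.2, 8.56, and 13.5 CPM in bleomycin, and 14.3, 9.58, and 9.71 CPM in ND-646 libraries, with log2 fold-changes of -1.37 (adjusted p = 0.000923) and -1.37 (adjusted p = 0.00266). LOC100294145 was called in bleomycin, -1.12 (adjusted p = 0.000148), and palbociclib cells, -1.07 (adjusted p = 3.28e-05), from 33.8 ± 0.656 CPM at day-0 (SD, n = 3). EMSLR was called in TVB-3166 cells alone, at 10.3, 10.5, and 8.31 CPM against 21.5, 25, and 21.3 CPM (-1.21, adjusted p = 2.78e-05), with -0.72 (adjusted p = 0.00826) in ND-646 and -0.54 (adjusted p = 0.015) in bleomycin cells. In bleomycin cells DANCR, an RNA that opposes differentiation, was also lower (31.3, 22.7, and 29.1 CPM against 69.5, 68.3, and 59.4 CPM, log2 fold-change -1.24, adjusted p = 0.000131), as were PCCA-DT (-1.24, adjusted p = 0.000266) and LOC100130449 (-1.09, adjusted p = 0.00121), the last at -0.98 without bleomycin replicate 2. DANCR had negative log2 fold-changes between -0.83 and -0.52 in the other TIS groups, under a 2-fold change, with adjusted p-values of 0.0473 or less.

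The list of lncRNAs tied to proliferation and cancer held CYTOR, DANCR, TINCR, DSCAM-AS1, EPB41L4A-AS1, and OIP5-AS1 as members. EPB41L4A-AS1 was higher in palbociclib (11.2, 12.0, and 11 CPM against 4.37, 4.92, and 5.71 CPM at day-0, log2 fold-change 1.19, adjusted p = 0.000129), bleomycin (1.08, adjusted p = 0.00199), and ND-646 cells (1.10, adjusted p = 0.0354). In ND-646 cells replicate 1 was the highest (17.6, 6.79, and 8.03 CPM), and the value without it was 0.57 (adjusted p = 0.0345). OIP5-AS1, a cytoplasmic RNA that binds microRNAs, had 0.86 (adjusted p = 0.000553) in bleomycin, 0.80 (adjusted p = 0.00995) in ND-646, and 0.68 (adjusted p = 0.00051) in TVB-3166 cells, and 0.21 to 0.26 in the other TIS groups, none at a 2-fold change. TINCR, known from epidermal differentiation, had 0.71 (adjusted p = 0.00105) in bleomycin cells (114, 102, and 99.5 CPM against 73.1, 64.3, and 55.8 CPM). CYTOR had 0.82 (adjusted p = 0.00429) in palbociclib and 0.80 (adjusted p = 0.0665) in ND-646 cells. Of these 6, 1 was called higher and 2 lower in bleomycin, 1 and 1 in ND-646, 1 and 0 in palbociclib, and 0 in TVB-3166, doxorubicin, and alisertib cells. The shares of all genes tested were 11.1% higher and 7.19% lower in bleomycin, 10.5% and 8.95% in ND-646, and 10.4% and 6.09% in palbociclib cells. With so few members, these counts are a description only.

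NKILA, which binds the NF-κB complex and blocks phosphorylation of its inhibitor, was highest with bleomycin. Its level was 3.31, 4.09, and 2.69 CPM at day-0, 4.19, 4.55, and 4.19 CPM at day-7, 11.5, 9.93, and 12.2 CPM in bleomycin, 8.44, 8.21, and 8.43 CPM in doxorubicin, 7.58, 9.62, and 6.84 CPM in palbociclib, 7.19, 7.94, and 6.22 CPM in TVB-3166, 5.78, 6.83, and 7.08 CPM in ND-646, and 4.43, 4.84, and 3.34 CPM in alisertib libraries. Only alisertib libraries overlapped with day-0. The log2 fold-change of NKILA was 1.74 (SE 0.20, adjusted p = 0.000183) in bleomycin, 1.33 (SE 0.18, adjusted p = 0.000332) in doxorubicin, 1.25 (SE 0.21, adjusted p = 0.000547) in palbociclib, and 1.09 (SE 0.20, adjusted p = 0.000819) in TVB-3166 cells, 0.96 (adjusted p = 0.0125) in ND-646 (1.05, adjusted p = 0.00314, without replicate 1), and 0.32 (adjusted p = 0.286) in alisertib cells. Its untreated means under 5 CPM make its membership depend on the treated groups. Compared with day-7 cells, it passed both thresholds in bleomycin cells alone, 1.39 (adjusted p = 0.00023). NKILA was the only member on the interferon and NF-κB list. The stress and metabolism list held MIR22HG, EPB41L4A-AS1, and NORAD, of which 2 were called higher in ND-646 and palbociclib cells and 1 in each other TIS group, with 0 lower. All of these are also counted on other lists. Of all genes tested, 6.06% (alisertib) to 11.1% (bleomycin) were called higher, and this list is too short to be compared with them.

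CASC9, an RNA named as a cancer susceptibility candidate, had its highest levels with ND-646, TVB-3166, and bleomycin. It was at 29.9, 31.4, and 31.1 CPM at day-0, 103, 93.6, and 76.3 CPM in ND-646, 69.2, 73.1, and 58.3 CPM in TVB-3166, and 69.9, 71.5, and 57.9 CPM in bleomycin libraries, against 52.5, 52.8, and 43.0 CPM in palbociclib, 40.8, 42.7, and 32.8 CPM in doxorubicin, and 32.9, 37.1, and 27.2 CPM in alisertib libraries. The log2 fold-changes were 1.55 (adjusted p = 0.000132), 1.12 (adjusted p = 7.89e-06), and 1.11 (adjusted p = 9.85e-05) in the first 3 groups and 0.68, 0.34, and 0.07 in the others. Against day-7 cells only ND-646 cells passed both thresholds, at 1.28, with 0.84 in both TVB-3166 and bleomycin cells.

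Untreated cells were also compared between both days of collection. Between untreated day-7 and day-0 cells 1 member was called higher and 0 lower (all genes tested: 0.169% and 0.0293%), XIST at 1.06 (adjusted p = 0.0434). By DESeq2, 4 members were called, XIST, OLMALINC (1.10), ADARB2-AS1 (1.03), and LOC102724814 (1.15), and 7 had a raw p-value under 0.05 with a 2-fold rise and 0 with a 2-fold fall. No share of all genes at these cuts stands beside these counts. NEAT1 had 1.42 (SE 0.35, adjusted p = 0.0813), with no overlap between the day-7 and day-0 libraries, and 2.08 (adjusted p = 0.00733) without day-0 replicate 3. With the replicate number as a block, 7 members were called higher, STAG3L5P-PVRIG2P-PILRB (1.36), XIST, ADARB2-AS1 (1.04), NEAT1 (1.62, adjusted p = 0.00285), OLMALINC (1.12), LOC729737 (1.04), and LOC102724814 (1.19), but the numbers could not be shown to pair these libraries. The median log2 fold-change of the members was 0.15 against 0.01 for all genes tested, and 100 of the 134 were above 0.

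Without pairing of libraries, no member was called between TVB-3166 and ND-646 cells by edgeR's quasi-likelihood test, against 0.439% of all genes tested called higher and 0.117% lower. By DESeq2, also without pairing, 0 were called. At a raw p-value under 0.05 there were 10 members by edgeR and 12 by DESeq2, with no share of all genes at that cut beside them. ELF3-AS1 had the smallest adjusted p-value, with a log2 difference of -0.78 (SE 0.13, adjusted p = 0.0501), and lower levels in TVB-3166 (12.3, 13.3, and 12.0 CPM) than in ND-646 libraries (23.3, 22.1, and 19.5 CPM). With the replicate number as a block in the edgeR test, which takes same-numbered libraries as pairs, the result differed. SPECC1L-ADORA2A was then called lower in TVB-3166 cells at -1.51 (adjusted p = 0.0223) and STAG3L5P-PVRIG2P-PILRB higher at 1.49 (adjusted p = 0.0351). Without ND-646 replicate 1, DSCAM-AS1 (1.18, adjusted p = 0.00452) and LOC100130449 (1.07, adjusted p = 0.0018) were higher in TVB-3166 cells and SPECC1L-ADORA2A lower (-2.08, adjusted p = 0.00465). The absence of a call in the unpaired test does not show that both inhibitors acted alike, since the difference in NEAT1 was 0.97 with an SE of 0.51.

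The mean of ND-646 and TVB-3166 cells was compared with the mean of the 4 other TIS groups in one fit of all 24 libraries, which does not use the day-0 cells as a reference. In this comparison 5 members were higher and 5 lower (all genes tested: 2.27% higher and 4.82% lower). ABHD11-AS1, LINC00963, TRIM52-AS1, KDM7A-DT, and TP53TG1 were higher, and LINC02246, FAM225A, FAM225B, MIR1915HG, and LINC02693 were lower. Without ND-646 replicate 1, the same 5 were lower and 3 were higher, with TRIM52-AS1 at 0.88 and TP53TG1 at 0.88 under a 2-fold difference.

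ABHD11-AS1, transcribed antisense to the mitochondrial hydrolase gene ABHD11, was at 27.3, 14.9, and 13 CPM in ND-646 and 21.4, 16.2, and 18.6 CPM in TVB-3166 libraries. It was at 10.7, 13.4, and 9.78 CPM in bleomycin, 5.60, 6.47, and 6.39 CPM in alisertib, 3.70, 4.92, and 4.18 CPM in palbociclib, and 3.76, 5.47, and 3.38 CPM in doxorubicin libraries, and at 3.38, 6.08, and 4.44 CPM at day-0. Bleomycin replicate 2 was above the lowest ND-646 library, and all other libraries of the 4 drugs were below the FASTIS libraries. The log2 difference was 1.65 (SE 0.14, adjusted p = 5.84e-09). LINC00963 was at 32.1, 21.3, and 29.1 CPM and 37.4, 22, and 32.3 CPM in ND-646 and TVB-3166 libraries and at 17.7 CPM at most with the other drugs, a difference of 1.13 (SE 0.10, adjusted p = 1.28e-08) with no overlap. KDM7A-DT, the divergent transcript of the histone demethylase gene KDM7A, was at 13.9, 12.5, and 10.5 CPM and 13.5, 12.6, and 11.3 CPM, with 10.2, 12.6, and 7.62 CPM in bleomycin libraries and 7.09 CPM at most with the other 3 drugs (1.06, SE 0.11, adjusted p = 1.26e-07). TRIM52-AS1 (1.08, adjusted p = 3.37e-07) was at 17.4, 10.0, and 7.71 CPM in ND-646 and 8.30, 7.56, and 8.0 CPM in TVB-3166 libraries, and TP53TG1 had 1.06 (adjusted p = 6.71e-07).

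**Figure D4:**
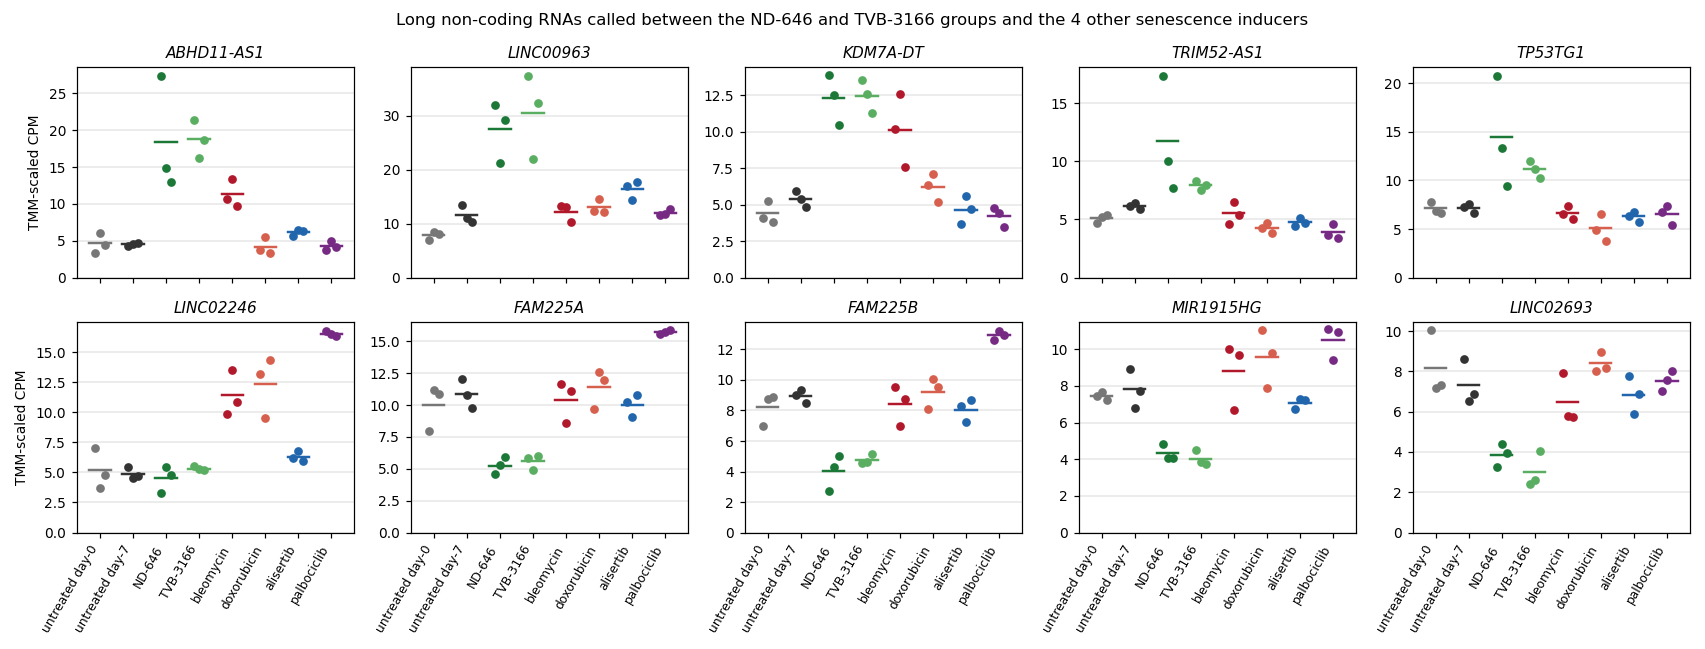
Level of the 10 members called between FASTIS and the 4 other TIS groups (TMM-scaled CPM, linear axis from 0) in each library, with points for replicates 1 to 3 and a line at the group mean. In the upper row the ND-646 and TVB-3166 groups have the highest means, and in the lower row they have the lowest means of the 6 TIS groups.

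Among the RNAs that were lower in FASTIS cells, MIR1915HG, the host of miR-1915, was at 4.85, 4.07, and 4.07 CPM in ND-646 and 4.52, 3.83, and 3.73 CPM in TVB-3166 libraries. With the other drugs it was at 11.1, 9.40, and 11 CPM (palbociclib), 11, 7.89, and 9.79 CPM (doxorubicin), 10.0, 6.67, and 9.66 CPM (bleomycin), and 6.76, 7.28, and 7.20 CPM (alisertib), all above the FASTIS libraries. Its log2 difference was -1.09 (SE 0.10, adjusted p = 2.82e-08). FAM225A and FAM225B, neighbouring near-identical genes whose reads may be shared, were at 5.26 and 4.03 CPM in ND-646, 5.59 and 4.78 CPM in TVB-3166, 10.4 and 8.42 CPM in bleomycin, 11.4 and 9.24 CPM in doxorubicin, 10.0 and 8.05 CPM in alisertib, and 15.8 and 12.9 CPM in palbociclib cells, against 10.0 and 8.21 CPM at day-0, with log2 differences of -1.10 (adjusted p = 1.30e-08) and -1.10 (adjusted p = 4.62e-08). FAM225B was also lower than at day-0 in ND-646 cells, at -1.02 (adjusted p = 0.0157), and at -0.81 without replicate 1. LINC02693 had -1.08 (adjusted p = 4.64e-07), and it was also lower than at day-0 in ND-646 (-1.09, adjusted p = 0.00683, and -0.97 without replicate 1) and TVB-3166 cells (-1.43, adjusted p = 0.000386). LINC02246 (-1.16, adjusted p = 1.99e-07) differed in another way, since ND-646 (-0.20) and TVB-3166 cells (0.04) overlapped with the day-0 libraries, and palbociclib (16.8, 16.5, and 16.3 CPM), doxorubicin (13.2, 9.52, and 14.3 CPM), and bleomycin libraries (9.89, 13.5, and 10.9 CPM) were higher than day-0 libraries (7.02, 3.74, and 4.76 CPM).

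Antisense and divergent RNAs were set beside the gene they are named for. Of the 42 members with such a name, 38 had a partner gene tested in each comparison. In ND-646 cells 9 of the 38 were called, and the partner was called in the same direction for 4, in the opposite direction for 1, and not called for 4. The corresponding numbers were 7 called with 3, 0, and 4 in TVB-3166, 9 with 2, 0, and 7 in bleomycin, 3 with 0, 0, and 3 in doxorubicin, 1 with 0, 0, and 1 in alisertib, and 5 with 0, 1, and 4 in palbociclib cells. Without ND-646 replicate 1 there were 7 called with 5, 0, and 2 in ND-646 cells, and in bleomycin cells 9 with 3, 1, and 5 without replicate 1 and 6 with 1, 0, and 5 without replicate 2. Of all genes tested, 6.06% (alisertib) to 11.1% (bleomycin) were called higher and 1.38% (alisertib) to 8.95% (ND-646) lower. The Pearson correlation of log2 fold-changes across the 38 pairs was 0.17 in ND-646, 0.21 in TVB-3166, and 0.08 in bleomycin cells. It was -0.06 in doxorubicin, -0.02 in alisertib, and -0.39 in palbociclib cells. Whether members and partners are coupled was not tested.

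**Figure D5:**
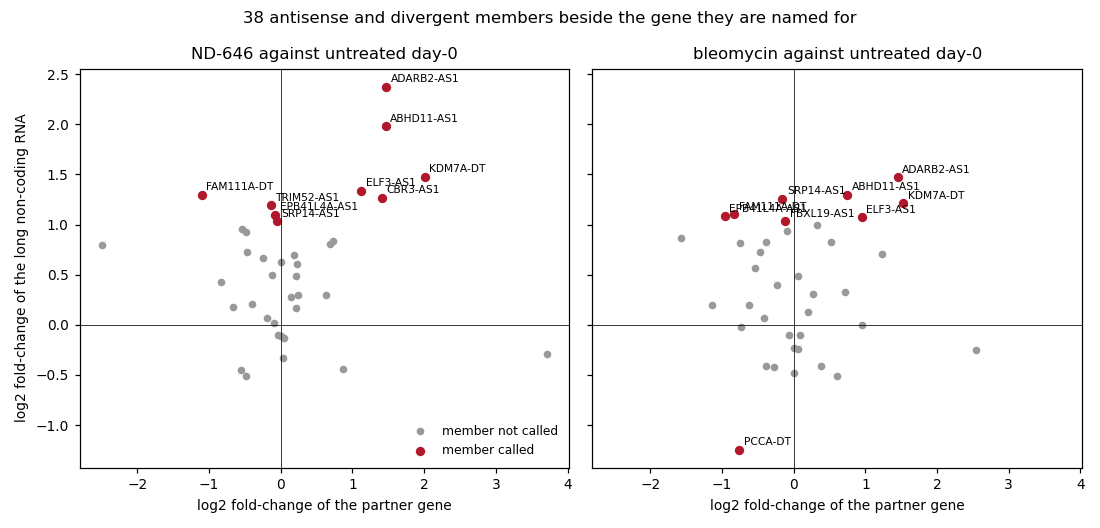
Log2 fold-change of 38 antisense and divergent members (vertical axis) against that of the gene each is named for (horizontal axis) relative to untreated day-0 cells, in ND-646 cells (left) and bleomycin cells (right), with called members in red. KDM7A-DT, ABHD11-AS1, and ADARB2-AS1 lie to the upper right in both panels, and FAM111A-DT lies to the upper left.

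KDM7A rose with KDM7A-DT, at 2.01 (adjusted p = 0.000582) in ND-646 and 2.04 (adjusted p = 3.17e-07) in TVB-3166 cells, where the RNA had 1.48 and 1.51. Both were also called in bleomycin cells, KDM7A at 1.53 beside 1.21. KDM7A had 0.94, 0.69, and 0.68 in doxorubicin, alisertib, and palbociclib cells. ABHD11 rose with ABHD11-AS1 in ND-646 and TVB-3166 cells, at 1.46 (adjusted p = 0.000413) and 1.70 (adjusted p = 2.70e-06), where the RNA had 1.98 and 2.03. ABHD11 was also called in alisertib cells, at 1.10 (adjusted p = 0.000739), where ABHD11-AS1 was not (0.41). It had 0.75, 0.53, and 0.55 in bleomycin, doxorubicin, and palbociclib cells. CBR3, a carbonyl reductase gene, and ELF3, an epithelial transcription factor gene, rose with their antisense RNAs in ND-646 cells, at 1.41 and 1.13 beside 1.27 for CBR3-AS1 and 1.34 for ELF3-AS1. FAM111A, which encodes a replication-linked protease, was lower where its divergent transcript FAM111A-DT was higher, at -1.10 (adjusted p = 0.00245) beside 1.30 in ND-646 and -1.20 (adjusted p = 6.50e-05) beside 1.08 in palbociclib cells. In ND-646 cells FAM111A had -0.94 without replicate 1, under a 2-fold change. OIP5, a centromere protein gene, fell in ND-646 (-2.50, adjusted p = 4.47e-05) and TVB-3166 cells (-1.73, adjusted p = 9.09e-06), whereas OIP5-AS1 had 0.80 and 0.68. OIP5 was also called lower in bleomycin (-1.57, adjusted p = 0.000519) and palbociclib cells (-1.06, adjusted p = 0.000242), beside 0.86 and 0.25 for OIP5-AS1. In doxorubicin and alisertib cells OIP5 had -0.90 and -0.50. SDCBP2, at a mean of only 2.37 CPM over all libraries, rose by 3.71 on the log2 scale (adjusted p = 0.000617) in ND-646 cells beside -0.29 for SDCBP2-AS1. The rise of SDCBP2 was also called in TVB-3166 (3.12), bleomycin (2.55), doxorubicin (2.11), and palbociclib cells (2.04), and not in alisertib cells (0.22). Other called members had partners that were not called, among them EPB41L4A-AS1, SRP14-AS1 (1.03), and TRIM52-AS1 (1.19) in ND-646 cells beside -0.08, -0.05, and -0.14. These 3 RNAs were themselves not called without ND-646 replicate 1, at 0.57, 0.89, and 0.80. Members called with other drugs whose partner was not called included FBXL19-AS1 (1.05) and TNRC6C-AS1 (1.40) in TVB-3166 cells beside -0.43 and -0.25, EMC3-AS1 (1.13) in doxorubicin cells beside -0.06, and PCCA-DT (-1.24) in bleomycin cells beside -0.76. ADARB2 was also low, at a mean of 1.16 CPM over all libraries. ADARB2 had 1.47 (adjusted p = 0.0702) in ND-646 and 1.44 (adjusted p = 0.00724) in TVB-3166 cells and -0.49 in palbociclib cells, where ADARB2-AS1 had 1.86, and ADARB2 was called in ND-646 cells without replicate 1, at 1.88 (adjusted p = 0.00254).

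The read-through members join exons of neighbouring genes, and their rows can hold reads of either. TEN1-CDK3 rose in TVB-3166 (1.49, adjusted p = 0.000746), palbociclib (1.25, adjusted p = 0.00512), alisertib (1.10, adjusted p = 0.00753), and ND-646 cells (1.02, adjusted p = 0.0492), whereas TEN1, a telomere-capping subunit gene, fell by 1.49 in TVB-3166 and by 1.36 in palbociclib cells on the log2 scale. INO80B-WBP1 rose in alisertib (1.63, adjusted p = 0.00182), TVB-3166 (1.45, adjusted p = 0.000631), and doxorubicin cells (1.07, adjusted p = 0.00833), with 0.00 for INO80B and -0.05 for WBP1 in alisertib cells. SLX1A-SULT1A3 and SLX1B-SULT1A4, copies of one another, were called in TVB-3166 cells at 1.06 and 1.04. SPECC1L-ADORA2A varied 4.66-fold between group means but did not pass the test among the 8 groups, with 17.1, 79.4, and 85.7 CPM in ND-646, 8.50, 21.6, and 28.3 CPM in TVB-3166, and 68.9, 27.5, and 0.503 CPM in day-0 libraries.

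Positions on GRCh37 were found for 113 of the 134 members in GENCODE release 44 lifted to that build. Of these, 59 overlapped a protein-coding gene on the opposite strand, 18 one on the same strand, and 45 neither, and 39 started within 1000 bases of the start of an opposite protein-coding gene. Levels were compared between members only per kilobase of annotated exon, from CPM averaged over all 24 libraries. NORAD had 83.1 CPM per kb, DSCAM-AS1 36.1, MALAT1 29.1, STAG3L5P-PVRIG2P-PILRB 26.1, and TUG1 25.2, while NEAT1 had 19.7. LINC00674 reached 509 CPM per kb, but the annotation used gives it only 160 bases of exon, and its length is uncertain. The GENCODE release types 100 of the 113 placed members as lncRNA and 13 otherwise. TUG1, TINCR, TEN1-CDK3, INO80B-WBP1, and SPECC1L-ADORA2A are among those typed protein-coding there, and ABHD11-AS1 is typed as a transcribed pseudogene. In a newer RefSeq table, 126 members were still lncRNAs, 3 were protein-coding, 2 were transcribed pseudogenes, and 3 were not found.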

How the data were processed

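RNA-seq was performed on SKBR3 cells in 8 groups of 3 libraries. The counts per gene were made by the authors and deposited as 1 table. The study's methods name HISAT2, StringTie, and GRCh37. Whether counting used strand is not given in the sources used here. The kit is an mRNA kit in the labels and a total RNA kit in the methods.

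Groups came from the sample labels. Counts were analysed with edgeR 4.0.16 (R 4.3.3, limma 3.58.1) by the quasi-likelihood test after the default filter on low counts and TMM scaling, in a separate fit of the 6 libraries of each comparison and in one fit of all 24 for FASTIS against other TIS and for the 8 groups. P-values were adjusted by the Benjamini-Hochberg method over all genes tested. A gene was called at an adjusted p-value under 0.05 and a fold-change of at least 2. Levels are TMM-scaled CPM. A prior count of 2 was used only for the log2 levels behind the correlations between replicates, and fitted log2 fold-changes used edgeR's default. DESeq2 1.42.0 and the other alternatives are described in the closing section. The edgeR and DESeq2 steps were tested on simulated data. All 134 members passed the filter in every comparison. Tables and plots were made with Python 3.11.15.

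The members and the gene lists were chosen with earlier results of these data known. The text names list members, the 3 called members that rose and the 3 that fell most in each comparison among those without overlap between groups, the 5 highest per kb of exon, the 3 nearest the threshold on each side, and called members with a partner gene. Others, such as those that lost a call without 1 library, copies of named genes, and further members given with values, were chosen after their values were seen.

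Replicate numbers recur across groups, but the labels do not tie them to a shared culture or day. Deviations from the group means correlated between same-numbered libraries of TVB-3166 and ND-646 cells at 0.379, 0.211, and 0.292, all over 0.1. The fit with the replicate block took these as pairs, and the main test of this comparison did not. In each other comparison 1 or 2 of the 3 correlations were over 0.1.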

Additional observations from a re-analysis of the deposited data

How the results depend on the processing

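The counts of members higher in TIS cells kept their direction under DESeq2, RLE size factors, no filter on low counts, one fit of all 24 libraries, and the replicate block. Against untreated day-7 cells instead, where the shares of members higher came closer to those of all genes and fell below them in bleomycin and doxorubicin cells, members higher numbered 15 in ND-646, 21 in TVB-3166, 10 in bleomycin, 7 in doxorubicin, 5 in alisertib, and 10 in palbociclib cells, and members lower 5 in TVB-3166 and 0 in doxorubicin and alisertib cells. With no fold-change minimum, the numbers higher and lower were 47 and 13 in ND-646, 76 and 21 in TVB-3166, 57 and 15 in bleomycin, 62 and 11 in doxorubicin, 43 and 11 in alisertib, 63 and 13 in palbociclib cells, and 45 and 21 for FASTIS against other TIS. Apart from the day-7 reference, no share of all genes tested stands beside the counts of this section. They describe the members alone. Alisertib had 0 members lower by DESeq2 and by RLE size factors. For day-7 against day-0, members higher numbered 4 by DESeq2, 0 without a filter, 7 with the replicate block, 2 in one fit of all 24 libraries, and 7 by raw p-value and fold-change. For TVB-3166 against ND-646 cells, the replicate block gave 1 higher and 1 lower, and raw p-value with fold-change gave 1 lower. The block changed no other count of calls by over 1.5 times. Leaving out 1 library at a time gave 19 to 33 higher and 3 to 6 lower in ND-646 (19 without day-0 replicate 2, 33 and 3 without ND-646 replicate 1), 34 to 39 and 3 to 4 in TVB-3166, 16 to 35 and 6 to 7 in bleomycin (16 without bleomycin replicate 2), 21 to 27 and 1 to 1 in doxorubicin, 18 to 26 and 0 to 1 in alisertib, 28 to 34 and 1 to 2 in palbociclib, 0 to 5 and 0 to 0 in day-7 cells, 0 to 2 and 0 to 1 for TVB-3166 against ND-646, 3 to 5 and 5 to 5 for FASTIS against other TIS, and 112 to 126 among the 8 groups. Of 1207 alternative values for 94 single-gene results, 0 changed direction and 89 lost the call. The cause of these changes was not tested.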
